A study of Mus musculus with 12 samples.

Results

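Budesonide, a synthetic glucocorticoid, was added to mouse embryonic stem cells that also received proline, and the 3 libraries of cells given both compounds were compared with the 3 libraries of cells given proline without budesonide. These 6 libraries were chosen by their labels from a series of 12. All genes of the count table that passed a filter on low counts were examined, which left 13852 of 53819 gene symbols. No expression value entered the choice of libraries.

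All 12 libraries came from E14, an established mouse embryonic stem cell line, grown in 2D, and were made with a kit that sequences a single tag near the 3′ end of each polyadenylated transcript. The proline group was treated with proline for 72 h and the group with both compounds with proline and budesonide for 72 h. A control group, described as untreated, and a group given budesonide without proline, 3 libraries each, completed the design. Neither compound's dose is stated in the labels. Separate cultures for the replicates are not mentioned either, and the p-values therefore measure the spread between libraries, which may be technical.

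Embryonic stem cells pass from a naive state, held by a network of transcription factors around Nanog, Esrrb, Klf and Tbx3 proteins, to a formative or primed state marked by Otx2, Pou3f1 and the de novo DNA methyltransferases. Added proline is known to move stem cells in culture away from the naive state. Glucocorticoids such as budesonide enter the cell and bind the glucocorticoid receptor, a nuclear receptor that then binds DNA and changes transcription of its target genes. The title of the series concerns cell-cell adhesion and pluripotency in gastruloids, which are stem cell aggregates that mimic early embryos, and the comparison here asks what budesonide changes in cells exposed to proline.

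The proline libraries held between 6779744 and 15921283 counts and those with both compounds between 6577358 and 7517878. Levels are given as CPM, counts per 1e6 counts of the library after TMM scaling. Stem cell identity was checked on marker lists: the 19 general pluripotency genes summed to between 7758 and 7980 CPM with proline and between 6568 and 6763 CPM with both compounds. Fibroblast genes that feeder cells would carry summed to between 17.9 and 24.3 CPM and between 4.8 and 11.3 CPM, with Postn, Lum, Mmp3 and Dpt at 0 in all 6 libraries. Counts on mitochondrial genes took 5.62 ± 0.156% (SD, n = 3) of each proline library and 7.95 ± 0.0708% of each library with both compounds. The ribosomal RNA gene Rn18s took between 2.36 and 3.39% and between 3.11 and 5.90%. The part of these differences in the results was not tested. In bulk RNA, fewer cells of a type and less RNA per cell cannot be told apart.

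Budesonide changed 1399 of the 13852 genes tested, or 10.1%, at an adjusted p below 0.05 (edgeR quasi-likelihood F test, Benjamini-Hochberg adjustment over all genes). Of these, 808 genes rose (5.83%) and 591 fell (4.27%). Counts of members called in each gene list below are to be set beside these shares. Throughout, rose, fell and called refer to this threshold, each log2 change is given with its standard error, and means are over 3 libraries with their SD. Among genes with at least 10 CPM in 1 of the groups, 327 of 738 called rises and 111 of 586 called falls exceeded 2-fold, and 42 rises and 13 falls exceeded 4-fold. The rises were the larger changes, with a median log2 change of 0.98 for the genes that rose and −0.65 for those that fell, against 0.02 for all genes tested. In 31.9% of all genes the 3 libraries of one group lay wholly above those of the other. Leaving out 1 library brought the count to between 847 and 1097. It fell by over 1.5 times without proline 1 (925 genes), without library 1 of the cells with both compounds (847) and without library 2 of that group (875).

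**Figure D1:**
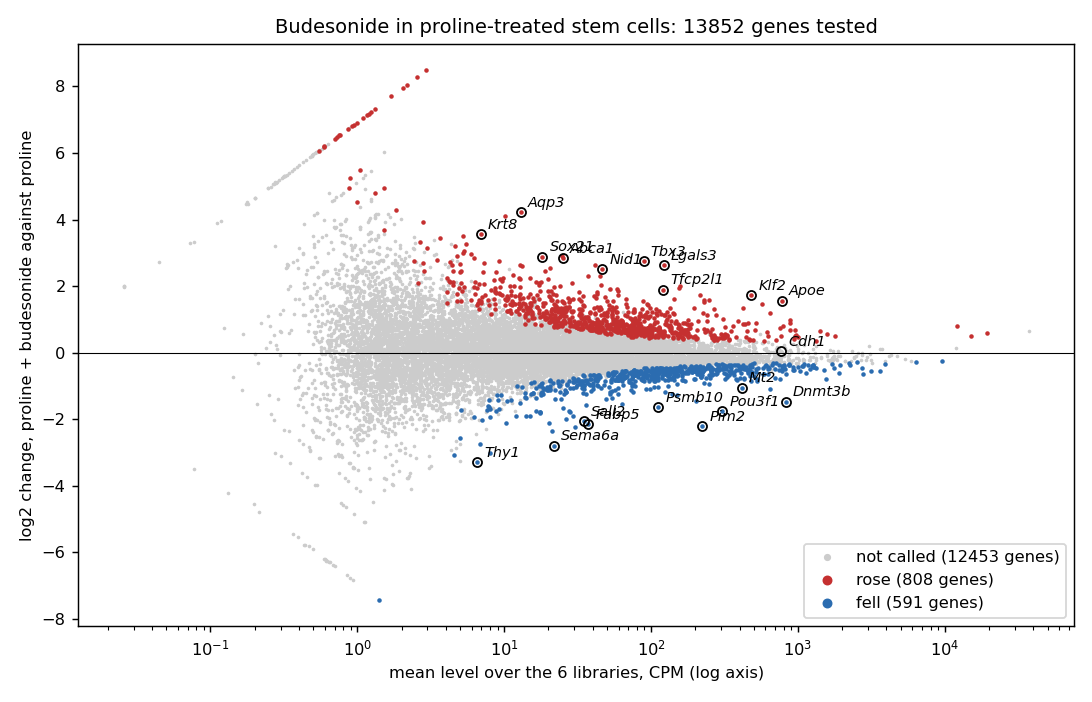
Each point is 1 of the 13852 genes tested, with its mean level over the 6 libraries in CPM on a log axis and its log2 change in cells with proline and budesonide against proline on the vertical axis. Called genes are red where they rose (808) and blue where they fell (591); the straight lines of points at the left are genes with no count in 1 group, whose fitted change has no meaning as a fold.

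The genes with the smallest p-values included the naive transcription factors Tbx3, Tfcp2l1 and Klf2 as well as genes of other functions. Tbx3, a T-box transcription factor of naive cells, stood at 24.9, 20.4 and 23.5 CPM with proline and at 148, 163 and 153 CPM with both compounds. Every library with both compounds was several times above every proline library, and the log2 change was 2.75 ± 0.14 (adjusted p = 1.53e-11). Lgals3, which encodes the sugar-binding protein galectin-3, rose from 33.9 ± 3.9 to 209.7 ± 15.8 CPM, a log2 change of 2.63 ± 0.14 (adjusted p = 1.77e-11). Mylpf, a myosin light chain gene best known from fast muscle, rose from 63.1 ± 7.45 to 253 ± 21.5 CPM (1.998 ± 0.13), and Apoe, the lipid carrier apolipoprotein E, rose from 394 ± 13.2 to 1163 ± 30.7 CPM (1.56 ± 0.10). Slc2a3, the glucose transporter Glut3, Cd63, a tetraspanin of late endosomes, Ckb, brain creatine kinase, and Slc25a36, a mitochondrial nucleotide carrier, rose by log2 values of 1.46, 1.58, 1.58 and 1.62. On the falling side, the serine/threonine kinase gene Pim2 stood at 373, 391 and 339.6 CPM with proline and at 74.6, 80.9 and 81.5 CPM with both compounds. The groups were far apart and its log2 change was −2.22 ± 0.14 (adjusted p = 3.18e-10). Psmb10, a subunit of the immunoproteasome, fell from 169 ± 16.8 to 54.2 ± 7.58 CPM (−1.64 ± 0.16 (adjusted p = 4.44e-07)), and Rbpms2, an RNA-binding protein gene, fell from 884 ± 101 to 414 ± 87.6 CPM (−1.09 ± 0.13 (adjusted p = 3.39e-06)).

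Of 31 naive pluripotency genes, all tested, 21 rose and none fell, and the median log2 change was 0.92. Among the 15 transcription factors of the list 12 rose, with a median of 1.22. The number of risers stayed between 19 and 21 when any 1 library was left out. Tfcp2l1, a transcription factor of the naive network, stood at 48.5, 55.7 and 50.2 CPM with proline and 185, 179 and 208 CPM with both compounds, a log2 change of 1.89 ± 0.12 (adjusted p = 3.18e-10). Klf2, a Krüppel-like factor, stood at 238, 216 and 219 CPM with proline and 742, 791 and 685 CPM with both compounds. Its groups were separated by a wide gap, with a log2 change of 1.72 ± 0.11 (adjusted p = 3.18e-10). The orphan nuclear receptor gene Esrrb rose from 128, 124 and 103 CPM to 327, 293 and 398 CPM (1.52 ± 0.14 (adjusted p = 1.31e-07)). Klf4, Zfp42, a zinc finger gene also known as Rex1, and Nanog behaved alike: each library with both compounds lay above each proline library, with log2 changes of 1.22 ± 0.15 (adjusted p = 1.04e-05) for Klf4 and 1.1 ± 0.16 (adjusted p = 8.32e-05) for Zfp42.

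Nanog, the homeobox gene that gives the naive network its best known marker, stood at 100.3, 131 and 102 CPM with proline and at 284, 265 and 285 CPM with both compounds. The log2 change was 1.33 ± 0.15 (adjusted p = 1.93e-06), with no overlap between the groups. The bases before its start site are shown because they hold the element at which Oct4 and Sox2 are known to bind Nanog. In the RefSeq promoter table (build GRCm38.p6, not the build of the counts) the stretch lies at chr6:122707374-122707460 on the plus strand. Capitals mark the letters known for Oct4 binding, TTTGCAT, which end 68 bases before the nearer annotated start, and the Sox2 letters follow them.
Nanog: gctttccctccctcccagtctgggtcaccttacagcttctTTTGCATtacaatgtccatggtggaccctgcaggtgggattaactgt
Searched on both strands in the 250 bases before the start, TTTGCAT occurred in 3.83% of the 10057 tested genes in the table, in 3.76% of the 585 that rose and in 3.30% of the 454 that fell. The match is a description of sequence and not a measurement of binding.

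Among the 16 other naive markers 9 rose. Tet2, which encodes a dioxygenase that oxidises methylcytosine, rose from 27.8 ± 5.82 to 81.7 ± 7.93 CPM (1.56 ± 0.20 (adjusted p = 1.61e-05)). Pecam1, an adhesion molecule on the surface of naive cells, rose from 17.1 ± 5.29 to 49.99 ± 0.762 CPM (1.55 ± 0.23 (adjusted p = 9.97e-05)), and Jam2, a junctional adhesion molecule, rose from 55.8 ± 6.79 to 141 ± 3.15 CPM (1.34 ± 0.14 (adjusted p = 7e-07)). Dppa3, or Stella, a protector of maternal methylation marks, was measured at 6.05 and 9.99 CPM with overlapping libraries and was not called (adjusted p = 0.432). Fgf4, an autocrine growth factor of stem cells, was at 127 and 157 CPM and was not called (95% confidence interval of the log2 change 0.01 to 0.59).

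**Figure D2:**
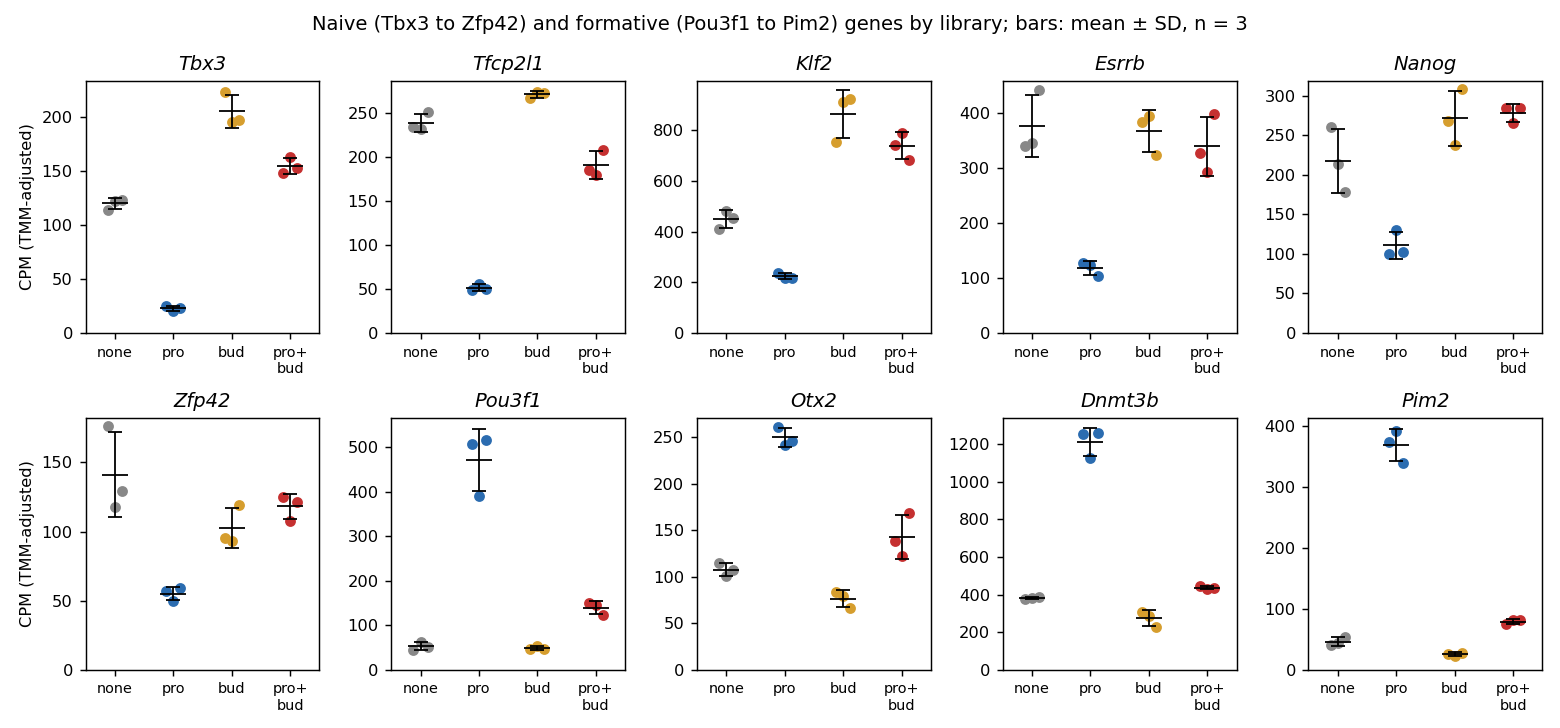
Level of 10 genes in each of the 12 libraries in CPM (vertical axes start at 0), by treatment: none, proline (pro), budesonide (bud) or both. Points are libraries and bars the mean ± SD, n = 3; the 3 libraries with both compounds lie above the 3 proline libraries for Tbx3, Tfcp2l1, Klf2, Esrrb, Nanog and Zfp42 and below them for Pou3f1, Otx2, Dnmt3b and Pim2.

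LIF, a cytokine that keeps mouse stem cells naive, signals through Lifr and Il6st to the transcription factor Stat3. Of 21 genes of this pathway tested, 5 rose and none fell (median 0.43), beside 5.83% and 4.27% of all genes. The kinase gene Pim2, which fell, was placed in the formative list and is not counted here. The receptor gene Lifr rose from 30.02 ± 5.49 to 57.3 ± 8.26 CPM (0.94 ± 0.20 (adjusted p = 0.00264)). Il6st, the shared receptor chain, and Stat3 itself were not called, with log2 changes of 0.48 ± 0.19 and 0.23 ± 0.17. Among targets, Socs2, a feedback inhibitor of cytokine signalling, rose from 165 ± 9.84 to 315 ± 23.7 CPM (0.94 ± 0.12 (adjusted p = 2.22e-05)) and the kinase gene Pim3 rose from 265 ± 33.4 to 513 ± 69.3 CPM (0.95 ± 0.15 (adjusted p = 0.000134)). Socs3, the usual readout of Stat3 activity, was not called (0.43 ± 0.22 (adjusted p = 0.248)). Of the 5 risers Klf4 and Tfcp2l1 also belong to the naive list.

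Of 18 general pluripotency genes, which both naive and primed cells express, 5 fell and none rose in edgeR (median −0.14), while 2 rose in DESeq2, under a 10 CPM filter and with only the 6 libraries compared, and 1 in limma-voom and with length and GC offsets. Sox2, the partner of Oct4, was at 437, 478 and 458 CPM with proline and 585, 569 and 557 CPM with both compounds, higher in each library with both compounds but not called (0.32 ± 0.11 (adjusted p = 0.0648)). Pou5f1, which encodes Oct4, was counted at only 30.3 and 26.9 CPM (−0.17 ± 0.25 (adjusted p = 0.761)); it has near-identical pseudogenes between which reads could be split, so its level is uncertain. Utf1, a chromatin-associated factor, fell from 675 ± 59.1 to 374 ± 32.5 CPM (−0.85 ± 0.12 (adjusted p = 5.98e-05)) and the Myc family gene Mycn fell from 326 ± 13.4 to 170.3 ± 14.1 CPM (−0.94 ± 0.12 (adjusted p = 1.72e-05)). Lin28a, an inhibitor of let-7 processing, fell from 413 ± 33.4 to 283 ± 28.3 CPM (−0.55 ± 0.12 (adjusted p = 0.00493)). Tdgf1, the Nodal co-receptor Cripto, fell from 965 ± 155 to 553 ± 59.8 CPM (−0.80 ± 0.13 (adjusted p = 0.000243)).

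Formative and primed epiblast genes moved the other way from the naive list. Of 40 tested, 16 fell and 3 rose, with a median log2 change of −0.49; among the 17 transcription factors 10 fell and none rose. Leaving out 1 library left between 12 and 15 falls. Pou3f1, a POU-domain factor of the formative epiblast, stood at 507, 390.0 and 516 CPM with proline and 149.8, 146 and 123 CPM with both compounds. The highest library with both compounds was below the lowest proline library by more than 2-fold, and the log2 change was −1.76 ± 0.15 (adjusted p = 2.63e-08). Otx2, which directs the exit from the naive state, was at 261, 242 and 246 CPM with proline and 138, 122 and 169 CPM with both compounds (−0.80 ± 0.14 (adjusted p = 0.000419)). Sall2, a zinc finger gene, fell from 56 ± 4.32 to 13.5 ± 5.55 CPM (−2.05 ± 0.36 (adjusted p = 0.000449)), and Lef1, a nuclear partner of beta-catenin, fell from 77.7 ± 9.3 to 35.5 ± 1.51 CPM (−1.13 ± 0.22 (adjusted p = 0.00156)). Zic2, a zinc finger factor of primed cells, had few counts (6.46 and 8.7 CPM) and was not called.

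Among signalling and surface members of the formative list the direction was mixed, with 3 rises and 3 falls in 18 tested. Pim2, described above, had the largest fall. Fgf15, a secreted growth factor, fell from 42.2 ± 5.24 to 10.5 ± 1.85 CPM (−2.01 ± 0.33 (adjusted p = 0.000289)). Fgf5, the usual marker of primed epiblast, was at 9.68, 12.4 and 8.75 CPM with proline and at 5.84, 0.292 and 4.8 CPM with both compounds. The libraries did not overlap, but counts were low and uneven within the group with both compounds, and it was not called (adjusted p = 0.326). Igfbp2, an insulin-like growth factor binding protein, rose from 351 ± 55.2 to 555 ± 87.2 CPM (0.66 ± 0.14 (adjusted p = 0.00244)), and Krt18, a keratin, rose from 13.3 ± 6.0 to 33.2 ± 7.49 CPM (1.34 ± 0.31 (adjusted p = 0.00635)). Cdh2, N-cadherin, and Nodal were not called, with adjusted p-values of 0.205 and 0.396.

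Some DNA methylation genes were called, on both the writing and the erasing side. Dnmt3b, a de novo methyltransferase, was at 1252, 1125 and 1259 CPM with proline and 444, 431 and 435 CPM with both compounds. The level in every library with both compounds was under the lowest proline library by more than 2-fold (−1.47 ± 0.11 (adjusted p = 6.15e-09)). Dnmt3a, the other de novo methyltransferase, fell from 297 ± 9.05 to 109 ± 9.85 CPM (−1.45 ± 0.13 (adjusted p = 6.38e-08)), and Dnmt3l, their catalytically inactive cofactor, fell from 671 ± 2.35 to 485 ± 21.9 CPM (−0.47 ± 0.11 (adjusted p = 0.00579)). The maintenance methyltransferase gene Dnmt1 was not called (0.46 ± 0.18 (adjusted p = 0.119)), nor was its recruiting factor Uhrf1 (0.17 ± 0.12 (adjusted p = 0.474)). Tet1 and Tet2, which oxidise methylcytosine, rose, Tet1 from 270.1 ± 24.8 to 427 ± 29.8 CPM (0.66 ± 0.11 (adjusted p = 0.000345)). In all, 4 of 22 genes of the list fell and 2 rose, beside 4.27% and 5.83% of all genes, with a median of −0.004. The remaining faller was Mbd3, a subunit of the NuRD complex (−0.67 ± 0.14 (adjusted p = 0.00221)).

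Signalling pathways of the early embryo held calls in both directions. Of 38 Nodal and BMP genes tested 3 rose and 2 fell, beside 5.83% and 4.27% of all genes. The ligand Nodal was at 94.9 and 112 CPM and was not called, whereas the ligand Bmp4 rose from 30.4 ± 1.75 to 48.4 ± 2.23 CPM (0.67 ± 0.17 (adjusted p = 0.0132)), a call that ended without proline 3 (0.0545) or both 2 (0.0548). Lefty1, a secreted Nodal inhibitor, rose from 257 ± 42.8 to 350.3 ± 35.6 CPM (0.45 ± 0.13 (adjusted p = 0.0346)), but the call ended without proline 2 (0.182), proline 3 (0.0828), both 1 (0.0711), both 2 (0.0553) or both 3 (0.152). Its neighbour Lefty2 was not called (0.36 ± 0.16 (adjusted p = 0.191)). The BMP target genes Id1, Id2 and Id3 were not called, with log2 changes of −0.35 ± 0.12, −0.14 ± 0.13 and 0.53 ± 0.23. None of the 3 rises in this list was called without proline 3 or without library 2 of the cells with both compounds, where the count was 0. The count of falls was 1 without proline 2 and without library 1 or 2 of the cells with both compounds.

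FGF signalling through ERK drives the exit from the naive state, and its feedback genes are read as a measure of pathway activity. Of 24 tested, 3 fell and 1 rose, beside 4.27% and 5.83% of all genes. Among feedback genes and targets, Spry2 and Spry4, which restrain receptor signalling, and the ETS factor Etv5 had log2 changes of 0.04 ± 0.13, −0.07 ± 0.30 and −0.04 ± 0.13 and were not called. The ERK phosphatase gene Dusp6 fell from 165 ± 13 to 116 ± 5.91 CPM (−0.51 ± 0.15 (adjusted p = 0.0276)), a call that ended without proline 2 (0.108), proline 3 (0.0733), both 1 (0.0714), both 2 (0.0753), both 3 (0.0959) or with length and GC offsets (0.0838). Etv4, another ETS factor, fell from 38.9 ± 2.64 to 21.1 ± 6.18 CPM (−0.88 ± 0.23 (adjusted p = 0.0141)), a call that ended without proline 1 (0.0551), both 1 (0.0841) or both 3 (0.0724). The receptor gene Fgfr1 rose from 34.2 ± 2.95 to 58.2 ± 4.45 CPM (0.77 ± 0.21 (adjusted p = 0.0202)), a call that ended without proline 1 (0.0514), proline 2 (0.0829), proline 3 (0.0522), both 1 (0.0672) or both 3 (0.0718). The count of falls was 1 without library 1 and without library 3 of the cells with both compounds.

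Wnt signalling acts through beta-catenin, which is also a component of adherens junctions. Of 36 Wnt genes tested 4 rose and 3 fell, beside 5.83% and 4.27% of all genes. No ligand or receptor among 14 was called by edgeR, DESeq2 or limma-voom (2 had an unadjusted p under 0.05), beside 10.1% of all genes called by edgeR. Sfrp1, a secreted Wnt inhibitor, rose from 44.8 ± 4.64 to 131 ± 3.6 CPM (1.55 ± 0.14 (adjusted p = 1.24e-07)), as did Notum, an enzyme that inactivates Wnt ligands, from 10.4 ± 0.719 to 31.4 ± 8.8 CPM (1.59 ± 0.35 (adjusted p = 0.0044)). Apc, a scaffold of the complex that degrades beta-catenin, rose from 49.4 ± 7.02 to 99.9 ± 13.6 CPM (1.02 ± 0.20 (adjusted p = 0.00143)), and the nuclear effector Tcf7l2 rose from 12.1 ± 2.62 to 30.2 ± 4.22 CPM (1.31 ± 0.25 (adjusted p = 0.00125)). Ccnd1, cyclin D1, fell from 83.1 ± 4.95 to 35.4 ± 2.96 CPM (−1.23 ± 0.19 (adjusted p = 0.000138)). The direct target Axin2 was at 4.11 and 5.69 CPM and was not called. Sp5, a target of Wnt in stem cells, fell from 10.5, 8.14 and 6.95 CPM to 2.0, 1.61 and 0.667 CPM (−2.58 ± 0.72 (adjusted p = 0.0225)), a call that ended without proline 1 (0.112), proline 2 (0.0595), both 2 (0.066) or both 3 (0.0816). In the hedgehog pathway 1 of 14 genes was called, near the 10.1% share of all genes. None of its 7 ligands and receptors was called by edgeR, DESeq2, limma-voom or an unadjusted p under 0.05. So few genes do not show that the pathway was unchanged. The effector Gli2 rose from 14 ± 3.23 to 32.6 ± 4.77 CPM (1.22 ± 0.26 (adjusted p = 0.00334)). The receptor Ptch1, which is also a pathway target, and the target Gli1 had log2 changes of 0.28 ± 0.19 and 0.03 ± 0.45.

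Adherens junctions join cells through cadherins, which catenins tie to actin. Cdh1, E-cadherin, stood at 832, 576 and 874 CPM with proline and at 830.0, 834 and 686 CPM with both compounds. The libraries overlapped, the log2 change was 0.04 ± 0.15 (adjusted p = 0.915), and its 95% confidence interval ran from −0.26 to 0.34. No cadherin gene among 13 tested was called by edgeR, DESeq2 or limma-voom, although 4 had an unadjusted p under 0.05. Of all genes 10.1% were called by edgeR. Of the 9 catenins and linkers 4 rose and none fell, with a median of 0.85. Jup, plakoglobin, a relative of beta-catenin found in both adherens junctions and desmosomes, was at 63.3, 50.3 and 68.1 CPM with proline and 136, 140.4 and 107 CPM with both compounds (1.08 ± 0.16 (adjusted p = 8.32e-05)). Ctnna1, alpha-catenin, rose from 233 ± 20.4 to 306 ± 45.5 CPM (0.39 ± 0.12 (adjusted p = 0.0346)), but that call ended with no low-count filter (0.0543), without proline 1 (0.0782), proline 2 (0.152), proline 3 (0.0516) or both 3 (0.205). Ctnnb1, beta-catenin, had few counts (5.35 and 9.64 CPM) and was not called.

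Other adhesion molecules held calls in both directions, 4 of 16 rising and 2 falling, beside 5.83% and 4.27% of all genes. Ncam1, the neural cell adhesion molecule, rose from 20.2, 13.5 and 23.8 CPM to 60.7, 56.9 and 71.2 CPM (1.71 ± 0.21 (adjusted p = 6.4e-06)), with every library with both compounds above every proline library. Thy1, a surface glycoprotein that also marks fibroblasts, fell from 17.3, 11.5 and 6.81 CPM to 1.38, 1.17 and 1.07 CPM (−3.29 ± 0.62 (adjusted p = 0.000976)). Epcam, an epithelial adhesion molecule, fell from 259 ± 39.7 to 187 ± 19.5 CPM (−0.47 ± 0.14 (adjusted p = 0.0344)), a call that ended without proline 1 (0.167), proline 2 (0.119), both 1 (0.0844), both 2 (0.176) or with length and GC offsets (0.121). Across the whole list of 38, 8 rose and 2 fell, with a median of 0.30; 1 fell without proline 1, proline 2 or library 1 or 2 of the cells with both compounds.

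Tight junctions seal neighbouring cells through claudins and occludin, which scaffold proteins anchor. Of 47 tight junction, desmosome, gap junction and epithelial genes, 5 rose and none fell in edgeR (median 0.09). With no low-count filter 1 fell, in DESeq2 3, and in limma-voom and with only the 6 libraries compared 4. Gjb5, a connexin of gap junctions, rose from 6.53 ± 2.16 to 18.6 ± 1.39 CPM (1.5 ± 0.34 (adjusted p = 0.00469)). Cldn4 was the 1 claudin of 6 called, rising from 25.8 ± 4.16 to 49.3 ± 7.07 CPM (0.94 ± 0.22 (adjusted p = 0.00696)), a call that ended without proline 1 (0.0526). Cldn6 and Cldn7 were at 111 and 86.2 CPM and at 10.7 and 3.68 CPM, not called. The 16 scaffold and occludin genes included no called member in edgeR or limma-voom and 1 in DESeq2, with 2 at an unadjusted p under 0.05. The share of all genes called by edgeR was 10.1%. Tjp1, ZO-1, had a log2 change of 0.13 ± 0.33 and Ocln, occludin, −2.55 ± 0.93 at under 6 CPM. Among epithelial regulators the transcription factor gene Elf3 rose from 14.6 ± 5.51 to 36.6 ± 2.41 CPM (1.34 ± 0.28 (adjusted p = 0.00259)), and the splicing factor Esrp1 was not called (−0.61 ± 0.24 (adjusted p = 0.121)).

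**Figure D3:**
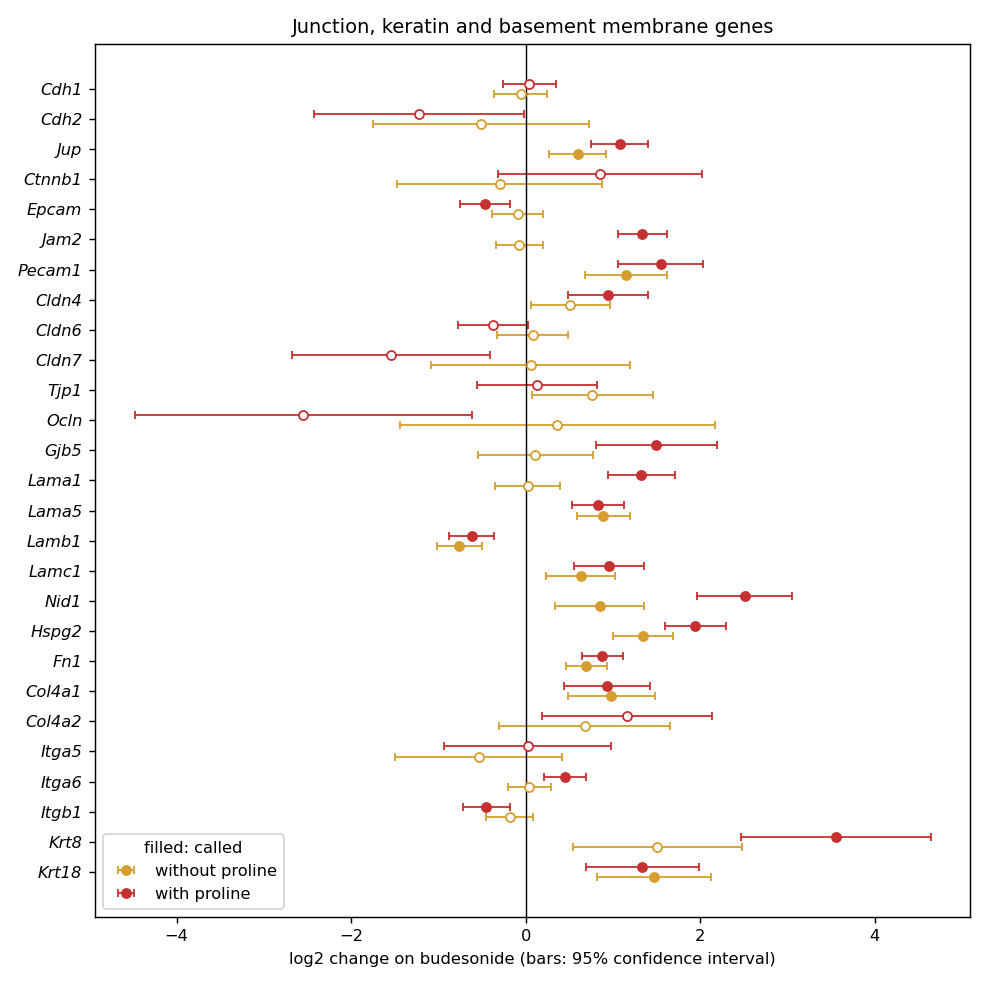
Log2 change on budesonide with proline (red) and without proline (gold) for junction, basement membrane, integrin and keratin genes, with 95% confidence intervals; filled points are called. Cdh1 lies at 0.04 with proline, while Nid1, Hspg2 and Krt8 lie at 2.51, 1.95 and 3.56.

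Genes of mesenchymal transition held calls in both directions: of 26 tested 6 rose and 3 fell, beside 5.83% and 4.27% of all genes. The regulators Snai1, Snai2, Zeb1 and Twist1, which repress Cdh1, were all under 11 CPM in both groups and not called (adjusted p from 0.402 to 0.986). The chromatin protein gene Hmga2 rose from 54 ± 3.1 to 89.4 ± 7.56 CPM (0.73 ± 0.16 (adjusted p = 0.00336)). Vim, vimentin, rose from 218 ± 8.75 to 298 ± 15.2 CPM (0.45 ± 0.13 (adjusted p = 0.0222)), a call that ended without proline 1 (0.0955), proline 2 (0.064), both 2 (0.0834) or both 3 (0.0675). The annexin Anxa2 rose from 15.1 ± 4.16 to 32.5 ± 3.55 CPM (1.11 ± 0.25 (adjusted p = 0.00537)) and S100a6, a calcium-binding protein, rose from 42.9 ± 5.64 to 82.9 ± 2.48 CPM (0.96 ± 0.16 (adjusted p = 0.0003)). Sparc, a matrix protein, fell from 359.9 ± 3.32 to 258 ± 8.51 CPM (−0.48 ± 0.11 (adjusted p = 0.00776)). The count of falls was 1 without proline 2 and without library 1 or 2 of the cells with both compounds.

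Among keratins and trophoblast genes 7 of 26 rose and 2 fell (median 0.63, or 0.57 without Plac1, which had no count in 1 group). Krt8, the partner of Krt18 in simple epithelia, stood at 0.72, 1.48 and 1.11 CPM with proline and at 14, 16.7 and 7.47 CPM with both compounds (3.56 ± 0.52 (adjusted p = 7.86e-05)); every proline library was below every library with both compounds. The transcription factor gene Tfap2c rose from 30.2 ± 5.89 to 78.4 ± 11 CPM (1.38 ± 0.21 (adjusted p = 0.000105)), while Cdx2 and Eomes, which define trophoblast stem cells, were under 5 CPM in both groups and not called. H19, an imprinted non-coding RNA abundant in placenta, rose from 12.5 ± 2.3 to 62.1 ± 12.1 CPM (2.29 ± 0.25 (adjusted p = 1.61e-06)). Rhox6 rose from 3.4 ± 1.53 to 16.2 ± 3.34 CPM (2.23 ± 0.44 (adjusted p = 0.00144)) and Rhox5 fell from 111 ± 3.71 to 63.5 ± 10.4 CPM (−0.81 ± 0.16 (adjusted p = 0.0013)); these X-linked homeobox genes have close copies, so their counts are uncertain. The summed list stood between 671 and 730 CPM with proline and between 744 and 786 CPM with both compounds, with Elf5 and Igf2 at 0. With genes under a mean of 10 CPM left out, 4 members rose. In this list 1 fell without any 1 proline library and without library 1 or 2 of the cells with both compounds.

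Basement membranes are sheets of laminin and collagen IV linked by nidogen and perlecan. Of 49 matrix and integrin genes tested 12 rose and 4 fell, with a median log2 change of 0.49. Nid1, nidogen, stood at 9.81, 17.2 and 15.1 CPM with proline and 87.8, 76.6 and 72.4 CPM with both compounds, well apart in every library (2.51 ± 0.26 (adjusted p = 9.6e-07)). Hspg2, perlecan, stood at 73.2, 69 and 48.1 CPM with proline and 269.6, 267 and 198 CPM with both compounds (1.95 ± 0.17 (adjusted p = 5.67e-08)). Among 6 laminin chains 4 rose: Lama1 rose from 29.4 ± 6.9 to 74.1 ± 10.5 CPM (1.32 ± 0.19 (adjusted p = 4.73e-05)), Lama5 from 111 ± 15.4 to 198 ± 14.5 CPM (0.83 ± 0.14 (adjusted p = 0.000458)) and Lamc1 from 142 ± 12 to 275 ± 43.5 CPM (0.96 ± 0.19 (adjusted p = 0.00194)). Lamb1, whose protein pairs with Lama1 and Lamc1 in the embryonic laminin trimer, fell from 211 ± 9.62 to 137 ± 9.13 CPM (−0.62 ± 0.13 (adjusted p = 0.00209)).

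Fibronectin and the integrins completed the matrix list. Fn1, fibronectin, rose from 367 ± 55.6 to 675 ± 17.1 CPM (0.88 ± 0.11 (adjusted p = 1.72e-05)). Col4a1, a collagen IV chain, rose from 24.4 ± 1.75 to 46.6 ± 8.3 CPM (0.93 ± 0.24 (adjusted p = 0.0127)), a call that ended without proline 3 (0.0539) or both 3 (0.0728); its partner Col4a2 was not called (1.16 ± 0.47 (adjusted p = 0.129)). Itga6, a laminin receptor subunit, rose from 174 ± 6.59 to 238 ± 25.3 CPM (0.45 ± 0.12 (adjusted p = 0.0148)), a call that ended without proline 1 (0.0631), both 1 (0.0687) or both 2 (0.0856). Its partner Itgb1 fell from 133 ± 3.42 to 97.4 ± 7.3 CPM (−0.45 ± 0.13 (adjusted p = 0.0263)), a call that ended with no low-count filter (0.0551), without proline 1 (0.0818), proline 2 (0.0716), proline 3 (0.0558), both 1 (0.135), both 2 (0.0528) or both 3 (0.0521), and Itga5, the fibronectin receptor subunit, was not called. With 1 library left out 8 or 9 matrix genes rose. The count of falls was 2 without proline 1 or 3 and without library 1 or 3 of the cells with both compounds.

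The glucocorticoid receptor gene Nr3c1 was detected at 11, 10.7 and 14.5 CPM with proline and 14, 14.8 and 14.7 CPM with both compounds and was not called. Of 26 genes that glucocorticoids induce in many cell types 2 rose and 3 fell, beside 10.1% of all genes called. Fkbp5, a chaperone partner of the receptor, stood at 102, 81.7 and 71.6 CPM with proline and 104, 98.3 and 95.9 CPM with both compounds (0.22 ± 0.16 (adjusted p = 0.461)). Sgk1, a serum and glucocorticoid regulated kinase, had a log2 change of −0.07 ± 0.13 (adjusted p = 0.812), and its 95% confidence interval ran from −0.34 to 0.19. Per1, a clock gene, and Dusp1, a MAP kinase phosphatase, had log2 changes of 0.52 ± 0.27 and 0.60 ± 0.36, and Tsc22d3, or Gilz, had only 2.16 and 1.98 CPM. Of the genes called, Nfkbia, the NF-kappaB inhibitor, rose from 76.6 ± 3.71 to 193 ± 17.8 CPM (1.34 ± 0.13 (adjusted p = 3.36e-07)), and the Krüppel-like factor Klf9 rose from 577 ± 18.9 to 1013 ± 51.4 CPM (0.81 ± 0.09 (adjusted p = 2.85e-06)). Mt2, a metallothionein that binds zinc, stood at 601, 568 and 509 CPM with proline and 249, 276 and 285 CPM with both compounds and fell (−1.05 ± 0.12 (adjusted p = 1.99e-06)). Cdkn1c, a cyclin-dependent kinase inhibitor, fell from 174 ± 25.4 to 76.2 ± 8.68 CPM (−1.2 ± 0.17 (adjusted p = 4.86e-05)).

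In all, 3 of 36 receptor, cofactor and induced genes rose and 5 fell; without proline 1, proline 3 or library 1 of the cells with both compounds 2 fell. The third riser was Ncor1, a corepressor of nuclear receptors (0.50 ± 0.09 (adjusted p = 0.000912)). The letters TGTTCT, 1 arm of the palindrome that the receptor binds, occurred on either strand in the 250 bases before the start of 13.3% of genes that rose, 11.2% of genes that fell and 12.6% of all 10057 tested genes in the RefSeq table. They are shown for Abca1, the cholesterol exporter gene that rose steeply, at chr4:53159928-53160013 on the minus strand of GRCm38.p6, where capitals mark them on the opposite strand as AGAACA.
Abca1: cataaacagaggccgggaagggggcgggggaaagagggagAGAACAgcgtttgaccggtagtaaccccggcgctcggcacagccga
This match ends 72 bases before the annotated start, and a short motif at this frequency is a description of letters only.

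Lipid handling genes included some of the steepest rises. Abca1 stood at 5.04, 9.18 and 4.45 CPM with proline and 43.7, 49.4 and 38.9 CPM with both compounds (2.84 ± 0.37 (adjusted p = 1.94e-05)). Fabp3, a fatty acid binding protein, stood at 1.05, 0.296 and 1.95 CPM with proline and 18.5, 15.2 and 23.3 CPM with both compounds (4.09 ± 0.64 (adjusted p = 0.000142)), whereas its relative Fabp5 fell from 60.9 ± 3.85 to 13.7 ± 2.03 CPM (−2.15 ± 0.34 (adjusted p = 0.00018)). Both groups were fully apart for these 3 genes. Cpt1a, which admits fatty acids to mitochondria, rose from 9.59 ± 3.45 to 30.9 ± 2.44 CPM (1.7 ± 0.29 (adjusted p = 0.000449)). The sterol synthesis enzymes Hmgcs1, Sqle and Cyp51 were not called, with log2 changes between −0.27 and −0.07. Srebf2 and Insig1, which control sterol synthesis, were not called (0.45 ± 0.17 (adjusted p = 0.0884) and 0.93 ± 0.34 (adjusted p = 0.0889)). Of 46 cholesterol and fatty acid genes 7 rose and 1 fell, beside 5.83% and 4.27% of all genes, with a median of 0.12.

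Proline enters the cells through amino acid transporters and is made and broken down by dedicated enzymes. The synthesis enzymes Aldh18a1, Pycr1 and Pycrl had log2 changes of −0.64 ± 0.43, 0.17 ± 0.35 and −0.30 ± 0.25, and Prodh, the first enzyme of breakdown, −0.35 ± 0.32; none was called. Slc38a2, or Snat2, a proline and neutral amino acid transporter, stood at 776, 841 and 809 CPM with proline and 1039.9, 1089.9 and 1088 CPM with both compounds (0.41 ± 0.09 (adjusted p = 0.00468)). Its libraries did not overlap, and the rise was small. Slc3a2, the heavy chain of several amino acid exchangers, rose from 301 ± 69.9 to 544 ± 78.4 CPM (0.85 ± 0.15 (adjusted p = 0.000544)), and its partner Slc7a5 was not called (1.04 ± 0.38 (adjusted p = 0.085)). Of 16 proline genes 1 rose and 1 fell, and of 22 transporters 3 rose and none fell in edgeR. Of all genes 5.83% rose and 4.27% fell. The faller among proline genes was Aldh4a1, an enzyme of proline breakdown (−0.62 ± 0.18 (adjusted p = 0.0246)), a call that ended without proline 2 (0.094), proline 3 (0.107), both 1 (0.0755), both 2 (0.0664) or both 3 (0.0788).

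The amino acid response runs from the kinase Gcn2 to the factor Atf4 and its targets. Atf4 was at 325 and 303 CPM and Asns, asparagine synthetase, at 134 and 155 CPM, with log2 changes of −0.10 ± 0.12 and 0.21 ± 0.12, not called. Chac1, a glutathione-degrading enzyme, stood at 24.9, 16.4 and 25.3 CPM with proline and 6.15, 6.87 and 4.67 CPM with both compounds and fell (−1.91 ± 0.39 (adjusted p = 0.00234)). Psat1, an enzyme of serine synthesis, fell from 256 ± 8.67 to 173 ± 28.3 CPM (−0.56 ± 0.13 (adjusted p = 0.00533)), a call that ended without both 2 (0.0508); Phgdh, Psph, Shmt2 and Sesn2 were not called. Ddit3, or Chop, rose from 2.06 ± 1.11 to 7.83 ± 0.695 CPM (1.93 ± 0.55 (adjusted p = 0.0253)), a call that ended with no low-count filter (0.0511), without proline 1 (0.107), proline 2 (0.0965), both 1 (0.0642) or both 2 (0.0817). Of 40 genes 6 fell and 3 rose, beside 4.27% and 5.83% of all genes. Without 1 of proline 1, proline 2 or libraries 1 and 2 of the cells with both compounds, 2 or 3 fell and 1 rose.

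Of 23 genes of glucose uptake and glycolysis 2 rose and 3 fell, beside 5.83% and 4.27% of all genes. Slc2a3, a high-affinity glucose transporter, stood at 300.0, 298 and 308 CPM with proline and 831, 721 and 947 CPM with both compounds (1.46 ± 0.12 (adjusted p = 1.68e-08)), while Slc2a1, Glut1, was not called (0.23 ± 0.10 (adjusted p = 0.146)). Ldha, lactate dehydrogenase A, stood at 1861, 2131 and 1894 CPM with proline and 1009, 1044 and 1331 CPM with both compounds and fell (−0.80 ± 0.11 (adjusted p = 2.24e-05)). Ldhb, which encodes the other main subunit of the same enzyme, rose from 138 ± 9.03 to 204 ± 17.4 CPM (0.57 ± 0.13 (adjusted p = 0.00713)), a call that ended without proline 1 (0.0509). The enzymes Hk1, Hk2, Tpi1, Pgk1, Eno1 and Pkm were not called. Gapdh fell from 402 ± 88.9 to 234 ± 14.2 CPM (−0.78 ± 0.23 (adjusted p = 0.028)), a call that ended in DESeq2 (0.106), without proline 1 (0.0632), proline 2 (0.157), both 1 (0.0985), both 2 (0.106), both 3 (0.0622) or with length and GC offsets (0.0649), and the gene has many pseudogene copies that could share its reads. Ndrg1 and Kdm3a, known hypoxia targets, rose from 5.91 ± 2.32 to 19.5 ± 1.92 CPM (1.69 ± 0.34 (adjusted p = 0.00211)) and from 62.6 ± 14.4 to 128 ± 11.5 CPM (1.03 ± 0.24 (adjusted p = 0.0059)). In total 5 of 34 rose and 3 fell, with 3 rises left without proline 1.

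Most of the mitochondrially encoded genes that could be tested rose. Of 9 tested, in a list of 15, 6 rose and none fell, with a median of 0.54. The 2 ribosomal RNAs among them were not called. mt-Nd4l, mt-Co3, mt-Atp6 and mt-Atp8 had no count in any of the 6 libraries, and the reason was not tested. mt-Cytb, a subunit of complex III, was at 8693, 9583 and 8263 CPM with proline and 14374, 15296 and 16086 CPM with both compounds (0.79 ± 0.08 (adjusted p = 9.6e-07)), mt-Co1, of complex IV, rose from 1101 ± 102 to 1726 ± 68.5 CPM (0.65 ± 0.10 (adjusted p = 0.000132)) and mt-Nd1, of complex I, rose from 15476 ± 95.6 to 23438 ± 307 CPM (0.60 ± 0.07 (adjusted p = 6.68e-06)). The complex I genes mt-Nd4, mt-Nd5 and mt-Nd6 rose by 0.50 ± 0.08 (adjusted p = 0.000343), 0.54 ± 0.09 (adjusted p = 0.000419) and 0.98 ± 0.25 (adjusted p = 0.0131). These calls ended with length and GC offsets (0.286) for mt-Nd4, with length and GC offsets (0.0524) for mt-Nd5 and in DESeq2 (0.0593), without proline 1 (0.0577), proline 3 (0.0823), both 2 (0.054) or with length and GC offsets (0.135) for mt-Nd6. mt-Nd2 was not called (0.11 ± 0.09 (adjusted p = 0.56)). With transcript length and GC content as offsets, an alternative added after seeing the data, 3 of the 9 were called and their median was 0.32. Nuclear genome copies of mitochondrial sequence could share these reads. The nuclear-encoded subunits were mostly not called, with 4 of 64 rising, 5 falling and a median of −0.10, beside 5.83% and 4.27% of all genes. With 1 library left out between 1 and 4 rose and between 0 and 6 fell.

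Of 12 G1 cyclin and kinase genes 5 fell and 1 rose. Ccnd1 stood at 79.8, 80.7 and 88.8 CPM with proline and 38.6, 34.7 and 32.8 CPM with both compounds, and Ccnd2, cyclin D2, fell from 69.1 ± 12.8 to 33.6 ± 4.28 CPM (−1.04 ± 0.19 (adjusted p = 0.000862)). Ccne1, cyclin E1, fell from 422 ± 16.1 to 274 ± 14.5 CPM (−0.62 ± 0.11 (adjusted p = 0.000465)), while Ccnd3 was not called at 3.86 and 9.88 CPM. Of 37 cell cycle genes 7 fell and 1 rose (median −0.10, or 0.02 with length and GC offsets), and of the 16 genes of S phase and mitosis 1 fell. The count of rises was 0 without proline 1 or library 1 of the cells with both compounds and 2 without proline 2. The inhibitor Cdkn1a, or p21, was at 57.9 and 50.8 CPM and was not called, and neither were Trp53 and its ubiquitin ligase Mdm2, with log2 changes of 0.28 ± 0.18 and −0.31 ± 0.12. Of 24 p53 genes 2 rose and 2 fell, beside 5.83% and 4.27% of all genes. The count of rises was 1 without proline 1, proline 2 or library 1 or 3 of the cells with both compounds. None fell without proline 2 or library 2 of the cells with both compounds, and 1 fell without proline 3.

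Among stress genes, calls went in both directions, beside 5.83% of all genes rising and 4.27% falling. Of 27 immediate early and heat shock genes 1 rose and 3 fell: the small heat shock protein Hspb1 rose from 320.0 ± 47.8 to 589.8 ± 21.3 CPM (0.88 ± 0.12 (adjusted p = 2.5e-05)) and the mitochondrial chaperonin Hspd1 fell from 547 ± 59.3 to 383 ± 21.2 CPM (−0.51 ± 0.11 (adjusted p = 0.00379)). Fos, Jun and Egr1 were not called, and neither were Hspa1a and Hspa1b. The count of falls was 1 without proline 3, without library 1 of the cells with both compounds and with length and GC offsets. With no low-count filter 5 fell and 2 rose, and 3 rose in limma-voom and with only the 6 libraries compared. Among 20 antioxidant and haem genes 4 rose and none fell in edgeR, while DESeq2 and limma-voom each called 1 fall, and 2 rose without proline 1 or library 1 or 2 of the cells with both compounds. Nqo1, a quinone reductase, rose from 12.6 ± 2.05 to 37 ± 4.32 CPM (1.54 ± 0.24 (adjusted p = 0.00018)) and the autophagy receptor Sqstm1 rose from 109 ± 7.73 to 198 ± 6.74 CPM (0.85 ± 0.13 (adjusted p = 8.27e-05)). The regulators Nfe2l2 and Bach1 and the haem oxygenase Hmox1 were not called, with adjusted p-values of 0.0543, 0.13 and 0.531.

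Lineage lists held calls in both directions, beside 5.83% of all genes rising and 4.27% falling. Of 21 neuroectoderm genes 4 rose and 4 fell: the transcription factor gene Sox21 rose from 4.42 ± 1.53 to 32 ± 2.21 CPM (2.88 ± 0.36 (adjusted p = 9.47e-06)) and the neuronal tubulin Tubb3 rose from 23.6 ± 3.35 to 53.5 ± 2.88 CPM (1.19 ± 0.19 (adjusted p = 0.0002)), whereas the guidance gene Sema6a fell from 38.2 ± 8.29 to 5.52 ± 3.21 CPM (−2.79 ± 0.42 (adjusted p = 8.86e-05)) and Prtg, protogenin, fell from 50.2 ± 8.97 to 10.7 ± 1.0 CPM (−2.23 ± 0.41 (adjusted p = 0.000769)). Leaving out proline 1, proline 3 or library 1 or 3 of the cells with both compounds left 2 falls. Sox1 and Pax6, early neural factors, were not called, with adjusted p-values of 0.815 and 0.0577. Of 14 streak and mesoderm genes 2 rose and 1 fell; in the endoderm list 2 of 15 rose and 2 fell, and Gata4, Gata6, Sox17 and Foxa2 were under 5 CPM in both groups. In the streak list 1 rose without proline 2, proline 3 or library 2 or 3 of the cells with both compounds, and none fell without proline 1, proline 2 or library 2 or 3 of those cells. In the endoderm list 1 rose without proline 3 or library 3 of the cells with both compounds. The summed endoderm list was higher with both compounds, between 1664 and 1739.5 CPM against 1048 and 1078 CPM, with Ttr, Thbd and Cer1 at 0. Apoe (log2 change 1.56) made up most of the sum with both compounds but not with proline. The gain of Apoe in CPM exceeded that of the sum, so the other members together were not higher. None of 6 two-cell-like genes was called by edgeR, DESeq2 or limma-voom, and 1 had an unadjusted p under 0.05, beside 10.1% of all genes called by edgeR. Mael, a transposon-silencing factor of the germline, fell from 42.8 ± 8.24 to 12.6 ± 3.36 CPM (−1.76 ± 0.29 (adjusted p = 0.000238)), the 1 call among 20 germline genes.

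Imprinted genes held calls in both directions, with 6 of 28 rising and 4 falling, beside 5.83% and 4.27% of all genes. Grb10, an adaptor that limits insulin signalling, stood at 192, 228 and 169.9 CPM with proline and 80.9, 67.7 and 99.6 CPM with both compounds and fell (−1.25 ± 0.15 (adjusted p = 6.36e-06)). Snrpn fell from 301 ± 14.8 to 160.1 ± 16.3 CPM (−0.91 ± 0.13 (adjusted p = 3.98e-05)), and the non-coding RNA Kcnq1ot1, of the same imprinted domain as Cdkn1c, rose from 32.1 ± 6.21 to 83.6 ± 5.64 CPM (1.38 ± 0.16 (adjusted p = 3.26e-06)). Meg3, Rian and Mirg, non-coding RNAs of a single cluster, rose by 0.38 ± 0.12 (adjusted p = 0.0457), 0.59 ± 0.17 (adjusted p = 0.0277) and 0.48 ± 0.13 (adjusted p = 0.0156). Their calls ended without proline 1 (0.0649), proline 2 (0.209), proline 3 (0.061), both 1 (0.196), both 2 (0.154) or with length and GC offsets (0.537) for Meg3, without proline 2 (0.15), proline 3 (0.0806), both 1 (0.0592), both 2 (0.0955), both 3 (0.0765) or with length and GC offsets (0.883) for Rian and without proline 1 (0.0584), proline 2 (0.0565), both 1 (0.0755) or both 2 (0.0614) for Mirg. With 1 library left out between 2 and 4 imprinted genes rose, 3 of them without any 1 proline library and 2 without library 1 or 2 of the cells with both compounds.

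Cytosolic ribosomal protein genes were lower by small amounts. Of 66 tested 12 fell and none rose, and 60 of 66 had a log2 change below 0 (median −0.23). Rpl4 stood at 3057, 4049 and 3032 CPM with proline and 2057, 2066 and 2414 CPM with both compounds (−0.63 ± 0.11 (adjusted p = 0.000572)), and Rpl21 and Rps7 fell, with log2 changes of −0.65 ± 0.12 (adjusted p = 0.000915) and −0.50 ± 0.11 (adjusted p = 0.00405). Rps2 was not called (−0.08 ± 0.13 (adjusted p = 0.771)). The count depended on single libraries: it was 5 without proline 1, 7 without proline 2, 4 without library 1 and 4 without library 2 of the cells with both compounds, and at most 18. Length and GC offsets left 5 falls and limma-voom called 25. These genes have many pseudogenes that could share their reads.

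**Figure D4:**
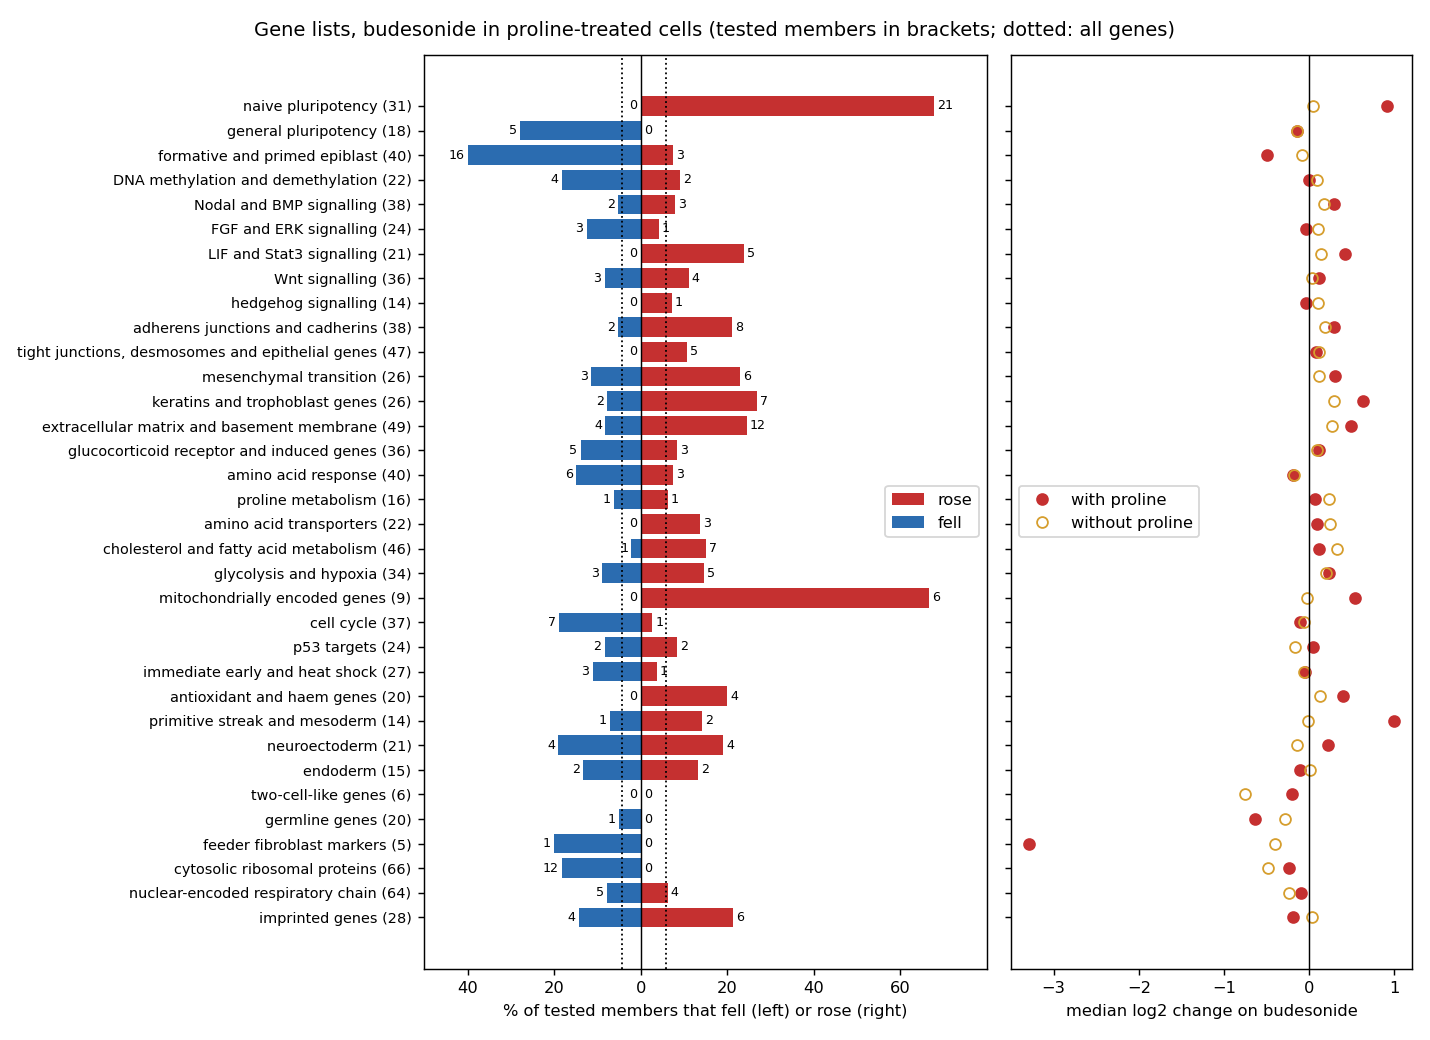
For each of the 34 gene lists, the left panel gives the percentage of tested members that rose (right of 0) or fell (left of 0), with the number of genes beside each bar and dotted lines at the shares of all genes, 5.83% and 4.27%. The right panel gives the median log2 change on budesonide with proline (red) and without it (gold rings); the naive list has 21 of 31 rising and the formative list 16 of 40 falling.

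Outside these lists the steepest rises, among genes with at least 10 CPM in the higher group, were of genes with few counts in proline cells. Aqp3, an aquaglyceroporin channel, stood at 0.0654, 2.96 and 1.25 CPM with proline and 18.8, 29.8 and 24.7 CPM with both compounds (4.22 ± 0.70 (adjusted p = 0.000312)). Uap1l1 rose from 5.91 ± 1.59 to 43.3 ± 8.31 CPM (2.89 ± 0.31 (adjusted p = 1.61e-06)), and Ahnak2, a large scaffold protein gene, rose from 3.66 ± 1.36 to 22.1 ± 0.45 CPM (2.62 ± 0.31 (adjusted p = 6.07e-06)). Camk2n1, an inhibitor of calmodulin-dependent kinase II, rose from 3.77 ± 1.55 to 22.5 ± 7.05 CPM (2.61 ± 0.43 (adjusted p = 0.000267)), and Mc5r, a melanocortin receptor gene, from 1.53 ± 1.54 to 11 ± 2.21 CPM (2.84 ± 0.63 (adjusted p = 0.00447)). Among the 15 largest falls of genes with at least 10 CPM in the higher group and no overlap of libraries, the tumour suppressor gene Wt1, a zinc finger factor, fell from 32.8 ± 6.79 to 7.6 ± 4.2 CPM (−2.1 ± 0.37 (adjusted p = 0.000498)), and the remaining ones beyond those described above lost their calls in at least 1 alternative. Car2, a carbonic anhydrase gene with a small p, fell from 176, 213 and 250.2 CPM to 95, 92.4 and 78.8 CPM (−1.26 ± 0.17 (adjusted p = 1.98e-05)).

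The trend of the changes with transcript length was measured because it can touch any long or short gene group. The median log2 change was −0.11 for genes with transcripts of up to 1 kb, −0.02 for 2 to 4 kb and 0.30 above 8 kb; 125 of 747 genes in the longest class rose while 14 fell. With length and GC offsets 1247 genes were called, 1096 of them also called without offsets. In that fit the medians were 1.03 for the naive list, −0.39 for the formative list and 0.51 for the matrix list.

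Whether the response depended on proline was tested with the budesonide group and its control, which share no library with the comparison above. Budesonide without proline changed 902 genes (6.51%), of which 348 rose and 554 fell. It changed 579 without control 3 and budesonide 3, the library of each group with the lowest correlations to its replicates. The difference of the budesonide effects, as an interaction term, was called for 65 genes (0.469%): 57 had a higher log2 change with proline (0.411%) and 8 a lower one (0.0578%). Leaving out 1 library gave between 42 and 86, with 42 without proline 3; DESeq2 called 162 and the fit with no low-count filter 134. Of the 31 naive genes 10 had a higher change with proline and none a lower one, and without proline 6 of the 31 rose, with a median of 0.05.

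The 10 naive genes with a called difference had their lowest mean in the proline group. A low proline level itself raises this difference, so the choice of these genes favours that order. Tbx3 stood at 114, 122 and 123 CPM in control and 223, 195 and 197 CPM with budesonide, a log2 change of 0.78 ± 0.13 (adjusted p = 0.000661), and the difference of the effects was 1.97 ± 0.19 (adjusted p = 3.82e-06). For Tfcp2l1 the change without proline was 0.18 ± 0.12 (adjusted p = 0.415) and the difference 1.71 ± 0.17 (adjusted p = 3.82e-06). Esrrb was not called without proline (−0.03, 95% confidence interval −0.31 to 0.25) and its difference was 1.55 ± 0.19 (adjusted p = 0.000162). Klf4 and Zfp42 had differences of 1.39 ± 0.21 (adjusted p = 0.00129) and 1.56 ± 0.23 (adjusted p = 0.000949), and Jam2 of 1.41 ± 0.19 (adjusted p = 0.000329). For Klf2 the difference was 0.78 ± 0.15 (adjusted p = 0.0143), a call that ended without control 2 (0.0649), proline 3 (0.0511), budesonide 1 (0.0543) or both 2 (0.0639). For Nanog it was 1.01 ± 0.20 (adjusted p = 0.0173), a call that ended without control 1 (0.0767), proline 1 (0.0918), proline 3 (0.0768), budesonide 1 (0.0531), budesonide 2 (0.0641), both 1 (0.0624) or both 3 (0.0547).

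Among formative genes, Pou3f1 had a change of −0.12 ± 0.15 (adjusted p = 0.738) without proline and a difference of −1.63 ± 0.21 (adjusted p = 0.000183). Its level was 53 ± 9.22 CPM in control and 48.6 ± 4.21 CPM with budesonide, both below the 139.5 ± 14.5 CPM with both compounds. Pim2 fell in both settings, with a log2 change of −0.85 without proline, with a difference of −1.37 ± 0.20 (adjusted p = 0.000967). Dnmt3a and Dnmt3b had differences of −0.996 ± 0.18 (adjusted p = 0.00687) and −0.99 ± 0.16 (adjusted p = 0.00166), while the difference for Dnmt3l was 0.01 ± 0.15 (adjusted p = 0.989) and was not called. Otx2 and Sall2 had differences of −0.31 ± 0.20 (adjusted p = 0.72) and −2.05 ± 0.51 (adjusted p = 0.0789), not called.

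Outside these lists Calcoco2, an autophagy receptor gene, had a change of 2.01 ± 0.28 with proline and −0.13 without, a difference of 2.14 ± 0.39 (adjusted p = 0.00746). Lgals3 and Mylpf had differences of 1.37 ± 0.19 (adjusted p = 0.000375) and 1.34 ± 0.17 (adjusted p = 0.000183), Ncam1 of 1.51 ± 0.28 (adjusted p = 0.0092) and Apoe of 0.88 ± 0.14 (adjusted p = 0.00239). In the matrix list the difference for Lama1 was 1.3 ± 0.26 (adjusted p = 0.0155), a call that ended without proline 3 (0.0511), budesonide 1 (0.0531) or both 3 (0.0637), and that for Hspg2 was 0.60 ± 0.23 (adjusted p = 0.431) and was not called. Irf1, an interferon regulatory factor, had changes of −0.40 ± 0.18 with proline and 0.96 ± 0.18 (adjusted p = 0.00202) without, a difference of −1.36 ± 0.25 (adjusted p = 0.00864). Bmp4 moved in opposite directions, with 0.67 with proline and −0.58 ± 0.17 (adjusted p = 0.0393) without; the difference was 1.25 ± 0.24 (adjusted p = 0.0125), a call that ended without control 2 (0.0517).

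**Figure D5:**
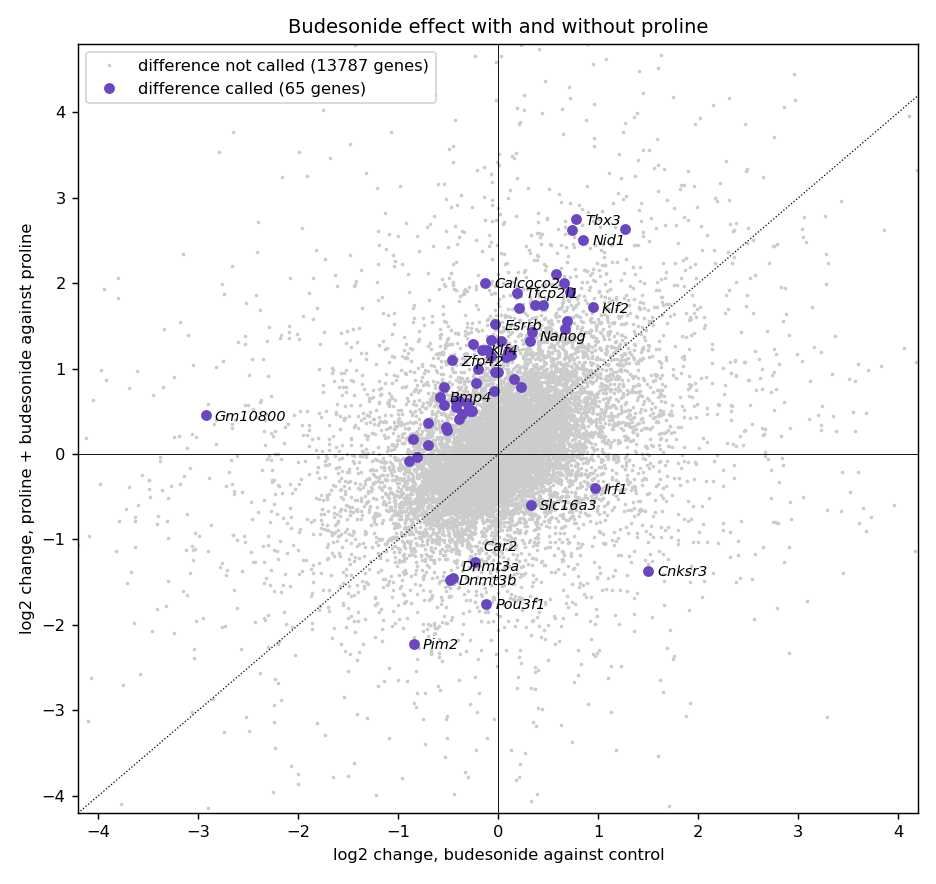
Log2 change on budesonide with proline (vertical) against that without proline (horizontal) for each gene tested; purple points are the 65 genes whose difference was called and the dotted line marks equal effects. Most purple points lie above the line, as Tbx3 and Tfcp2l1 do, and 8 lie below it, as Pou3f1 and Pim2 do; 193 genes fall outside the axes.

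Set against control, cells with both compounds had 1 of the 31 naive genes called higher and none lower, while 993 genes (7.17%) were called in that comparison, 462 of them higher (3.34%) and 531 lower (3.83%). The 1 naive gene was Klf2, at 449 ± 35.3 CPM in control and 739 ± 53.1 CPM with both compounds (0.72 ± 0.11 (adjusted p = 0.000186)). In the formative list 11 of 40 were called higher than control and 2 lower. Pou3f1 was among those higher (1.4 ± 0.15 (adjusted p = 3.48e-06)), and Dnmt3b was not called (0.19 ± 0.11 (adjusted p = 0.358)). Without library 1 or library 2 of the cells with both compounds, 551 and 530 genes were called against control. This comparison shares the libraries with both compounds with the main one, so its values are set beside it as levels only.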

How the data were processed

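The authors deposited whole-number counts per gene symbol for 12 libraries of E14 mouse embryonic stem cells, made from total RNA with a 3′ tag kit, per the labels' protocols. Tools listed in the submitters' processing notes, without role or order, were STAR 2.7.5c, cutadapt 2.5, featureCounts 2.0, bcl2fastq and DESeq2, with build GRCm39. No source used here gives the annotation or strand setting, so overlapping and antisense genes may share reads. A table of the authors' normalized values was not used. Groups were taken from the labels.

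The counts were filtered with filterByExpr (minimum count 10, minimum total 15) and fitted with edgeR 4.0.16 in R 4.3.3 (TMM, quasi-likelihood F test, 1 coefficient for each of 4 groups, 12 libraries, 8 residual degrees of freedom, two-sided), with Benjamini-Hochberg adjustment over all genes and a threshold of 0.05. The fit recovered known changes in data simulated with the same spread for every gene. That setting need not hold in these libraries, so the trial does not vouch for the calls. Standard errors were derived from the F statistic. The library totals, from 5299432 to 15921283 counts, set the precision for low genes. Alternatives used DESeq2 1.42.0, limma 3.58.1 voom, other filters, scaling, a replicate block, left-out libraries, and offsets for transcript length and GC content (GENCODE M21, matched for 97.7% of genes). No pair of replicates agreed within sampling noise.

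Named genes were the key members of the lists described, up to 4 called members a list and direction with the smallest p, the 15 largest rises and falls among genes with at least 10 CPM in the higher group and no overlap of libraries, the 10 smallest p-values and the 10 largest differences a direction. Members and lists were chosen with earlier results of these data known. Some genes that this rule selects are given as counts only, and a few are not reported here.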

Additional observations from a re-analysis of the deposited data

Results flagged for a closer look

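The results below were picked out because the change on budesonide differed between cells with and without proline in a test of the difference itself (the interaction term of the edgeR fit, adjusted p below 0.05 over all genes). Values are the log2 change with proline minus the log2 change without. In the naive network the differences were 1.97 for Tbx3, 1.71 for Tfcp2l1, 1.56 for Zfp42, 1.55 for Esrrb, 1.39 for Klf4, 1.41 for Jam2, 1.01 for Nanog and 0.78 for Klf2. In the formative and methylation lists they were −1.63 for Pou3f1, −1.37 for Pim2, −0.996 for Dnmt3a and −0.99 for Dnmt3b.

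Adhesion and matrix genes with a called difference were Nid1 (1.66), Ncam1 (1.51), Lama1 (1.3) and S100a6 (0.99). Among metabolic genes Apoe had 0.88, Slc2a3 0.80, Slc16a3 −0.92, Car2 −1.02, mt-Nd2 0.81, mt-Nd4 0.79 and mt-Cytb 0.56. The remaining ones were Ahnak2 (1.89), Bmp4 (1.25), Calcoco2 (2.14), Cnksr3 (−2.86), Hspb1 (0.72), Irf1 (−1.36), Lgals3 (1.37), Mylpf (1.34), Mymx (1.55) and Gm10800 (3.38). Gm10800 stood at 30.9, 22.4 and 11.9 CPM with proline and 55.7, 38.4 and 29.9 CPM with budesonide alone, against 365, 285 and 297 CPM in control and 29.4, 29.97 and 31.6 CPM with both compounds. It is a predicted gene whose reads may be shared with near-identical repeats, so its counts are uncertain. Of these 33 differences 18 were called in every alternative. Of up to 20 alternatives, 14 ended the call for Ahnak2, Mymx and S100a6, 13 for Hspb1, 12 for Car2 and 11 for Slc16a3. The call ended in 10 for Nid1, 9 for mt-Cytb, 7 for Nanog and Slc2a3 and 4 for Klf2. It ended in 3 for Lama1 and Cnksr3 and in 1 for Bmp4 and mt-Nd4.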

How the results depend on the processing

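Among the genes named, no called value of the main comparison changed sign under any alternative. Of the uncalled genes named 22, Cdh1, mt-Nd2, Cdx2 and Cdkn1a included, did in at least 1. Signs of other calls were not checked. Of the list medians the cell cycle and DNA methylation ones turned above 0 with length and GC offsets and the hedgehog one with the replicate block. Of 283 genes named by the rule and reported 179 were called in the main comparison, 113 of them in each alternative that tested them (14, or 13 for the 7 genes that the 10 CPM filter left out), and 20 uncalled genes were called in at least 1. The 1399 calls in proline-treated cells became between 847 and 1097 with 1 library left out (538 to 641 higher, 309 to 456 lower), and with only the 6 libraries compared the falls rose in number to 891. Without proline the 902 calls became between 629 and 792 with 1 library left out, 519 (200 higher, 319 lower) with only the 6 libraries of that comparison and 579 (208 higher) without control 3 and budesonide 3; DESeq2 called 568 higher. The 65 called differences became between 42 and 86 (37 to 76 higher, 5 to 10 lower), 162 in DESeq2 (129 higher, 33 lower) and 134 with no low-count filter (108 higher, 26 lower), and 13 were lower under a 10 CPM filter. The 993 calls of both compounds against control became between 530 and 799 (258 to 383 higher, 267 to 416 lower). The cause of these shifts was not tested, except that fits with fewer libraries have fewer samples. Replicate numbers did not pair the samples: same-number deviations correlated between −0.0767 and 0.0529, and a replicate block gave 1227 calls, 1207 of them shared with the fit without it. Depth limits genes of a few CPM, whose intervals are wide. The length offsets and the fit without control 3 and budesonide 3 were chosen after seeing the data.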
